A study of Homo sapiens with 42 samples.

Results

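The genes described here are 43 human regulators of chromatin, chosen by name. They are histone methyltransferases other than those for H3K36, histone acetyltransferases, Polycomb and SWI/SNF subunits, CHD-type remodelers, enzymes of DNA methylation and demethylation, histone demethylases, deacetylases and corepressors. N6-methyladenosine (m6A) peaks in their transcripts were taken from all 7 peak lists by gene identifier, and 42 of the 43 genes had a peak in at least 1 list. These genes held 211 of the 33672 peaks of the control list. The files name genes by Ensembl identifier only. The symbols used here come from general gene nomenclature and not from a table that pairs identifiers with symbols. For 42 of the 42 genes with peaks, the peaks lay on the chromosome that RefSeq gives for that symbol and in the same order along it.

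The m6A mark sits on adenosines inside messenger RNA and is written while the transcript is being made. METTL3 is the catalytic subunit of the writer, METTL14 holds the RNA substrate beside it, and WTAP is the adaptor that brings the pair to nuclear speckles. SETD2 trimethylates lysine 36 of histone H3 on transcribed gene bodies. The mark influences how a transcript is spliced, exported, translated and degraded, so its place on transcripts of chromatin enzymes is of interest as a link between RNA and chromatin modification. Many of these genes encode very large proteins from long coding exons, and long internal exons and the region around the stop codon are where m6A is known to gather.

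The cells were HepG2, a line from a human liver carcinoma, infected with lentiviruses that carry short hairpin RNAs (shRNAs) and selected with puromycin. A non-specific control shRNA served as control for shRNAs against METTL3, METTL14, WTAP and SETD2 (SETD2 #1), which are called the first set. A further shRNA against SETD2 (SETD2 #2) has a control shRNA of its own, called the second control, and these form the second set. Each of the 7 conditions had 3 input libraries of unselected mRNA and 3 immunoprecipitated (IP) libraries, 42 samples in all, and the labels do not say whether replicates were separate cultures. The authors called peaks on the 3 replicates together, so every condition has 1 list, no value has a replicate error and no test between conditions was possible. The lists held between 28645 and 33672 peaks. The reads behind each list are unknown, and the lists carry no expression values, so the depth of each knockdown could not be checked. Blocks are the exon parts of a peak. A control peak counts as absent from a list if none of that list's peaks on its strand shares 1 base or more with its blocks. Absence can follow from depth or transcript level as well as from methylation, and these cannot be told apart here. Fold enrichment (IP over input) and p are the authors' values for each peak. Where several peaks of a list overlapped a control peak, the values are those of the one that shared the most bases. Coordinates are those of hg19.

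Transcripts of chromatin regulators carried many peaks. In the control list 41 of the 43 genes had a peak, with a mean of 5.15 peaks per gene with a peak, against 2.31 over all genes of the list. KMT2D, a large methyltransferase of histone H3 lysine 4 (H3K4), had the most with 12, and KMT2A had 11. BPTF, which reads methylated H3K4 in a nucleosome-sliding complex, had 9. KMT2C, a sister of KMT2D, and DNMT1, the maintenance DNA methyltransferase, had 8 each. The lowest counts were 1 for SUZ12 and 2 each for EED, SMARCA2, DNMT3B, TET1 and HDAC1. EZH2, the catalytic subunit of Polycomb repressive complex 2, had none in the control list, and CHD2, a remodeler, had none in any of the 7 lists.

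The members with the most and the fewest control peaks lay further apart in some classes than in others. Among H3K4 methyltransferases the range ran from 12 in KMT2D to 3 in SETD1A, and among histone demethylases from 6 in KDM5A and KDM5B to 3 in KDM3B. EHMT1, a methyltransferase of H3 lysine 9, had 7 and SETD5 had 3. EP300, an acetyltransferase, had 4. ASXL1, a partner of the Polycomb deubiquitinase, had 6 peaks, in a class that also holds EZH2. In SWI/SNF the ATPase SMARCA4 had 5 peaks and its paralog SMARCA2 had 2. The number of peaks follows in part how the caller splits enriched stretches, so covered bases are given beside the counts that are compared between lists for single genes below, unless a gene is compared by its absent peaks.

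**Figure D1:**
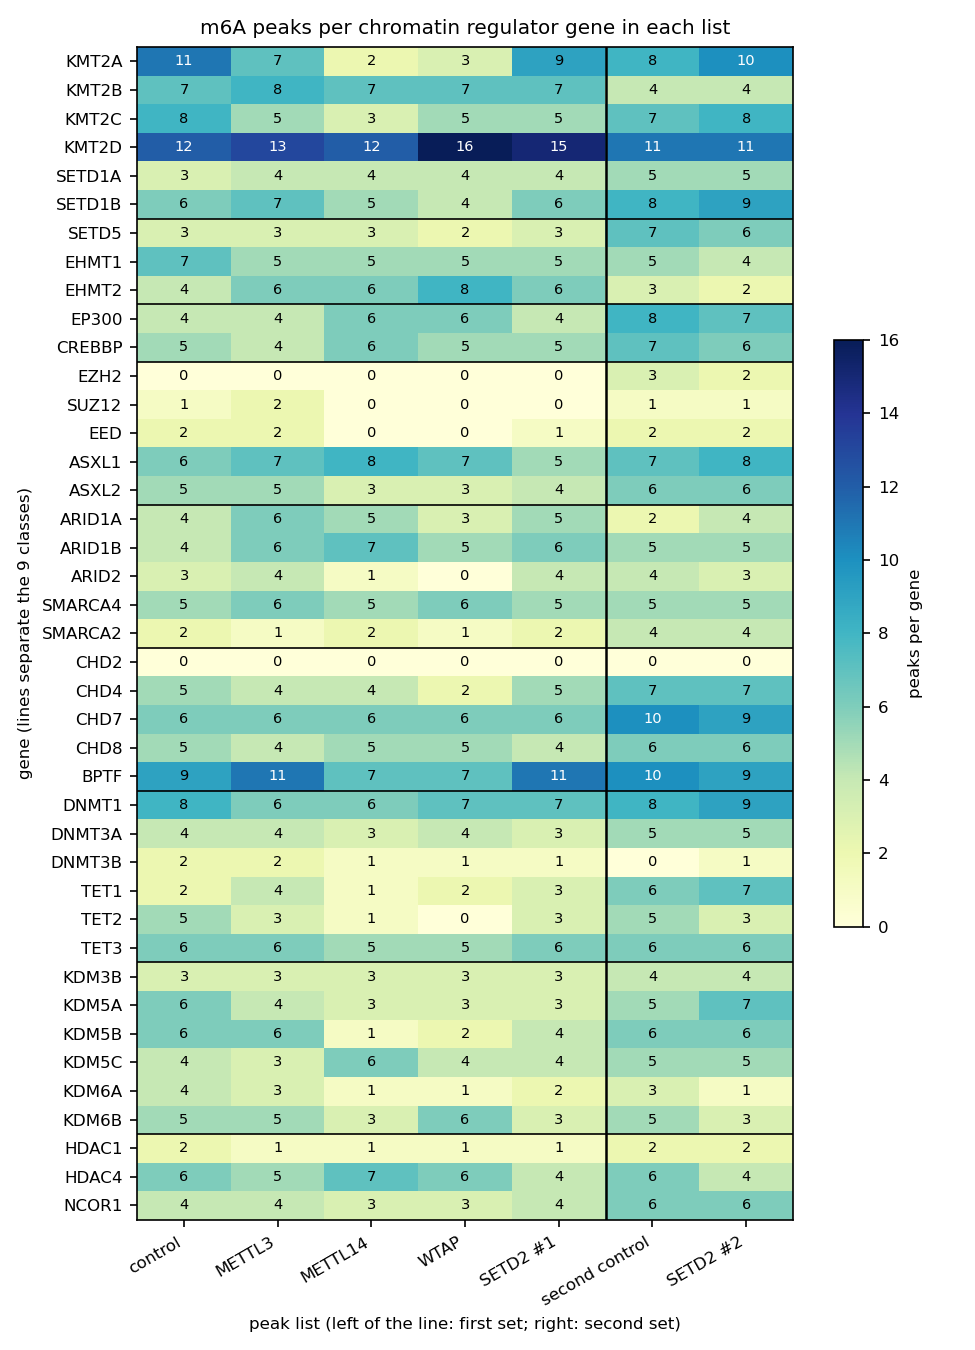
Number of m6A peaks in each of 41 of the 43 genes (rows, with black lines between the 9 classes) in each of the 7 peak lists (columns); the vertical line separates the first set from the second. KMT2A goes from 11 peaks in the control list to 2 in the METTL14 list, while KMT2D holds 11 to 16 in every list and EZH2 has peaks only in the second set.

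Peaks of these genes were wider and had better p than the list they came from. The median width in the control list was 331 bases for the chromatin regulators and 269 bases over all peaks, and the median log10 p was -22.3 against -11.8. Their median fold enrichment, 5.28, was below the 6.79 of all control peaks. The same order of widths and p held in each of the 7 lists, while the order of the fold enrichments turned in the WTAP list, at 7.15 for the members and 6.99 over all.

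The widest control peaks lay in SETD1A, SETD1B and ASXL1. In SETD1A (ENSG00000099381), a methyltransferase that acts in the COMPASS complex, a peak of 11 blocks covered 3527 bases within chr16:30976290-30992442 with 80.9-fold enrichment. Its relative SETD1B (ENSG00000139718) had a peak of 8 blocks and 2871 bases within chr12:122252656-122265492, with 70-fold enrichment and p listed as 0. ASXL1 (ENSG00000171456) had 2364 bases in 4 blocks within chr20:31019456-31023831, with 10.3-fold enrichment. At the other end, 3 control peaks in HDAC1, ASXL1 and KMT2A were 60 or 61 bases wide with at most 2.64-fold enrichment. The highest fold enrichment among all member peaks of the control list, 159, belonged to a 1498-base single-block peak of TET3 (ENSG00000187605), an enzyme that oxidises 5-methylcytosine, at chr2:74327821-74329318.

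A core of peaks was present under every condition. Of the 211 control peaks, 110 (52.1%, exact 95% interval 45.2 to 59.0) overlapped a peak in all 6 other lists, where the same held for 45.7% of all control peaks. From the second control 128 of 234 peaks did (54.7%, interval 48.1 to 61.2), against 53.7% of all peaks of that list. All intervals here cover counting error only, and peaks of 1 gene are not independent of each other. When overlapping peaks were joined over the 7 lists, the genes carried 266 sites, 109 of them (41.0%) in all 7 lists and 32 in a single list. The histone demethylases had the lowest share of the 9 classes, with 12 of 35 sites (34.3%) in all lists. The class of DNA methylation and demethylation was nearly equal, with 12 of 34 (35.3%). Joined sites were counted in these genes only, so the shares of sites have no value over all genes beside them.

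The strongest of these shared peaks marked genes of several classes. Besides SETD1B they included a 1409-base peak of KMT2B (ENSG00000272333), an H3K4 methyltransferase, within chr19:36209131-36211868, with 61.6-fold enrichment and p listed as 0. KDM6B (ENSG00000132510), a demethylase of H3 lysine 27, had a 1620-base single-block peak at chr17:7751402-7753021 whose fold enrichment was 59.9 in the control list and 44.5, 42.5, 81.6 and 40.3 in the METTL3, METTL14, WTAP and SETD2 #1 lists. In the second control it was 17.3 and in SETD2 #2 10.8. The 2 lists of the second set thus gave the lowest values for this peak. Over all peaks the median fold enrichment was also lower there, 4.33 in the second control and 3.81 with SETD2 #2. It was 5.32 to 7.02 in the lists of the first set. Fold enrichments of single peaks are therefore not on a like scale between the sets. Further peaks of this kind lay in KDM5C, KMT2D, ASXL2, CHD7, SMARCA4 and ARID1A, with log10 p between -590 and -817 in the control list.

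The question put to the writer knockdowns was which of the control peaks were no longer called. With METTL3 shRNA, 33 of the 211 peaks were absent (15.6%, interval 11.0 to 21.3), against 22.8% of all control peaks. With METTL14 shRNA 70 were absent (33.2%, interval 26.9 to 40.0), against 29.8%, and with WTAP shRNA 65 (30.8%, interval 24.6 to 37.5), against 28.8%. The share among chromatin regulators was therefore below that of all peaks for METTL3, and close to it for METTL14 and WTAP, where the intervals include it. These shares pool strong and weak peaks, which are taken apart below. Peaks absent with both METTL14 and WTAP but present with METTL3 and SETD2 #1 were 23 of the 211 (10.9%, interval 7.04 to 15.9), against 4.20% of all control peaks. These comparisons share the control list, so they are not independent of each other. The control peaks absent from the second control list, a comparison without a knockdown that includes any difference between the sets, were 41 of 211 (19.4%, interval 14.3 to 25.4), against 28.6% of all control peaks.

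In both classes of peak strength METTL3 had the lowest share among the writer knockdowns, for members and over all peaks. No member peak with p at or better than the median of the control list was absent from the METTL3 list, 0 of 125, which allows up to 2.91% by the exact interval, where 2.42% of all such peaks were. In the METTL14 list 14 of the 125 were absent (11.2%, interval 6.26 to 18.1), against 7.90%, and in the WTAP list 16 (12.8%, interval 7.50 to 20.0), against 7.41%. Of the 86 member peaks with worse p, METTL3 lacked 33 (38.4%, interval 28.1 to 49.5), against 43.3%. METTL14 lacked 56 of them (65.1%, interval 54.1 to 75.1), against 51.9%, and WTAP 49 (57.0%, interval 45.8 to 67.6), against 50.3%. The METTL14 interval for worse p and the WTAP interval for better p lay above the shares of all such peaks, the latter only just. The other intervals by strength included them. Most of the 41 members lacked at least 1 control peak in each list, 24 with METTL3, 34 with METTL14, 31 with WTAP and 28 with SETD2 #1. Member genes had more peaks to lose than genes of the list on average, and this count was not made over all genes. Outside the 5 genes with the most absent peaks (KMT2A, KDM5B, BPTF, KMT2C and TET2), 44 of 172 peaks (25.6%, interval 19.2 to 32.8) were absent with METTL14. Outside KMT2A, BPTF, TET2, KDM5B and ARID2, 40 of 177 (22.6%, interval 16.7 to 29.5) were absent with WTAP. These genes were left out for their losses, so both shares had to fall.

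**Figure D2:**
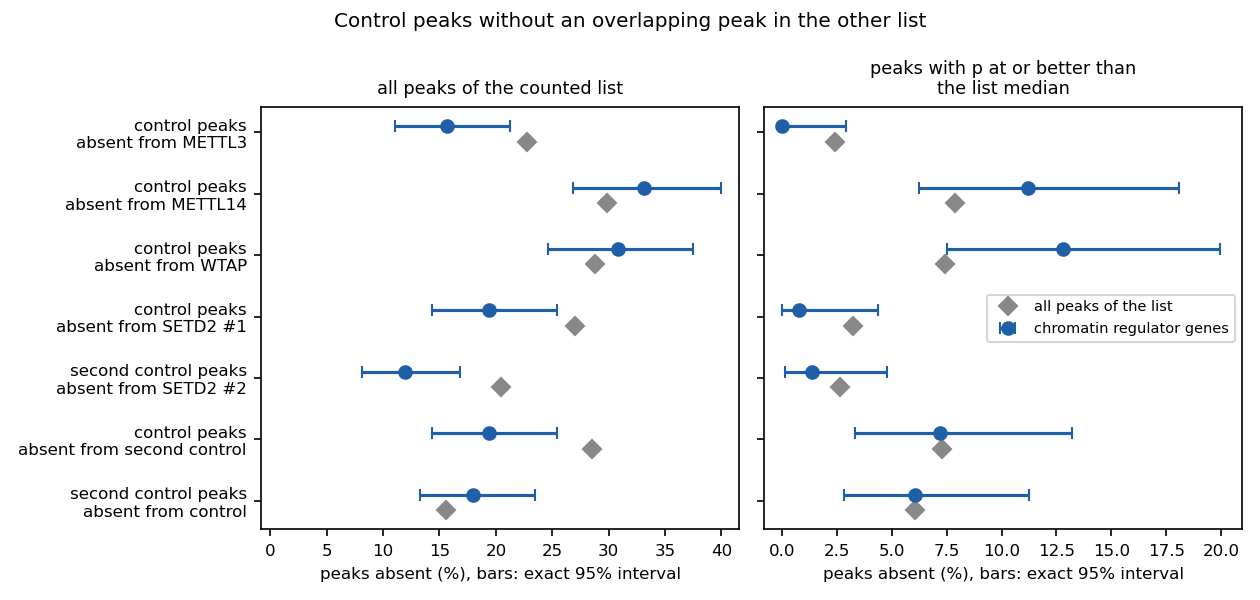
Percent of peaks of the counted list with no overlapping peak in the searched list, for the chromatin regulator genes (circles, with exact 95% intervals for counting error) and for all peaks of the list (diamonds); left, all peaks, right, peaks with p at or better than the list median. On the left the circles are at 15.6% for METTL3 and 33.2% for METTL14, and on the right at 0% and 11.2%.

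**Figure D3:**
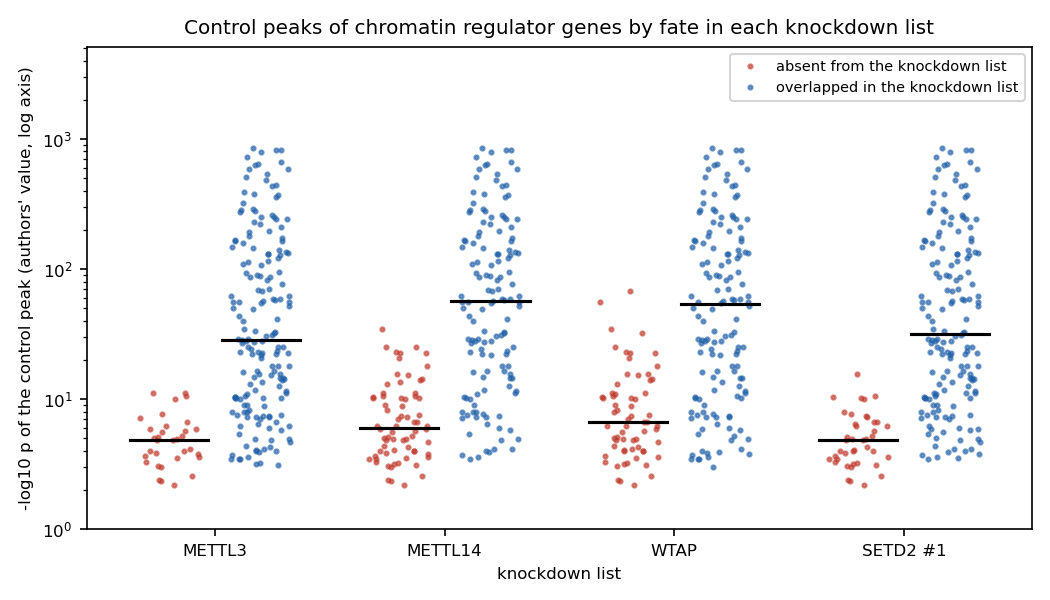
The negative log10 p of each member peak of the control list (log axis), split by whether it was absent from (red) or overlapped in (blue) the METTL3, METTL14, WTAP or SETD2 #1 list; black lines are medians, sideways scatter has no meaning, and the 2 peaks with p listed as 0 are not drawn. Absent peaks reach a log10 p of -11.2 for METTL3 and -67.2 for WTAP.

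Absent peaks were the weaker and narrower ones in each comparison. In the METTL3, METTL14, WTAP and SETD2 #1 comparisons the absent member peaks had a median log10 p of -4.88, -6.02, -6.69 and -4.85. The member peaks that were overlapped had medians of -28.8, -58.2, -55.3 and -32.4. Median widths of absent peaks were 181 bases for METTL3, METTL14 and WTAP and 151 bases for SETD2 #1. The overlapped peaks had median widths between 405.5 and 480 bases.

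Among the H3K4 methyltransferases the members differed in how many peaks were left. KMT2A and KMT2C had few peaks left in the METTL14 list, while KMT2B, KMT2D and SETD1A kept most of theirs. In the class as a whole 9 of 47 control peaks were absent with METTL3, 19 with METTL14 (40.4%, interval 26.4 to 55.7) and 16 with WTAP (34.0%, interval 20.9 to 49.3). The intervals for METTL14 and WTAP include the 29.8% and 28.8% of all control peaks. KMT2A (ENSG00000118058), the gene broken in many mixed-lineage leukemias, had 11 peaks in the control list and 7, 2, 3 and 9 in the METTL3, METTL14, WTAP and SETD2 #1 lists, with 8 in the second control and 10 in SETD2 #2. The bases covered were 3276, 1476, 391, 542 and 1898 in the first set and 1865 and 2316 in the second. METTL14 and WTAP were thus the lowest by both measures, and SETD2 #2 was above its own control.

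The peaks of KMT2A that stayed were at its 5' end. The peak at chr11:118344383-118344773 was present in all 7 lists, with 8.13-fold enrichment in the control and 7.16, 5.59, 13.5 and 6.35 for METTL3, METTL14, WTAP and SETD2 #1. None of the 8 control peaks from chr11:118373217 onwards was overlapped in the METTL14 list, and only the one at chr11:118392754-118393173 was in the WTAP list. The strongest absent one, at chr11:118373217-118373487, had a log10 p of -25.3 and 4.66-fold enrichment. It was present for METTL3 (3.83-fold), SETD2 #1 (3.86-fold), the second control (2.45-fold) and SETD2 #2 (2.1-fold). A 2-block peak within chr11:118376842-118378293 (3.49-fold) was absent from the METTL3, METTL14 and WTAP lists and from both lists of the second set, and was present for SETD2 #1.

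KMT2C (ENSG00000055609) had 8 control peaks and 5, 3, 5 and 5 peaks in the METTL3, METTL14, WTAP and SETD2 #1 lists, and its covered bases went from 2046 in the control to 1473, 663, 785 and 1114. Its peak at chr7:151845561-151845920, with 7.66-fold enrichment in the control, was absent from the METTL14 and WTAP lists and present in the other 4. KMT2D (ENSG00000167548) gave the opposite picture by count, with 12 peaks in the control and 13, 12, 16 and 15 in the METTL3, METTL14, WTAP and SETD2 #1 lists. Its covered bases were nevertheless lower, at 8675 in the control and 6819, 6249, 6613 and 7241, so its peaks were narrower on average than in the control. A KMT2D peak at chr12:49434223-49434582 (log10 p -11.2, 2.46-fold) was the strongest member peak absent from the METTL3 list, and it was absent from the METTL14 and WTAP lists as well.

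Members of the histone demethylases and the TET family differed likewise. Of 28 control peaks in demethylase genes 5 were absent with METTL3, 14 with METTL14 (50%, interval 30.6 to 69.4) and 11 with WTAP (39.3%, interval 21.5 to 59.4). Over all control peaks the shares were 22.8%, 29.8% and 28.8%, of which the METTL14 value lies just under the demethylase interval and the WTAP value within it. KDM5B (ENSG00000117139), which removes methyl groups from H3K4, had 6 control peaks, of which 0 were absent with METTL3, 5 with METTL14 and 4 with WTAP. Its covered bases were 1382 in the control, 1322 with METTL3 and 300 with METTL14. WTAP gave 420, SETD2 #1 gave 603, and the second control and SETD2 #2 gave 1653 and 1413. The peak that remained in every list lay within chr1:202698879-202700059, with 6.09-fold enrichment in the control and 6.72, 9.4, 5.61, 4.49, 6.87 and 7.49 in the other 6 lists in order.

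KDM6A (ENSG00000147050), a demethylase of H3 lysine 27 on the X chromosome, had 4 control peaks, of which 3 were absent with METTL14 and 3 with WTAP. The 3'-most, at chrX:44928860-44929430, had a log10 p of -23.1 and 4.33-fold enrichment, and was absent from both of these lists. It was present with METTL3 (3.86-fold), SETD2 #1 (3.01-fold), the second control (2.85-fold) and SETD2 #2 (4.31-fold). Its paralog KDM6B lacked 2 of 5 control peaks with METTL14 and 0 with WTAP. KDM3B kept all 3 peaks in each of the 4 knockdown lists of the first set, and KDM5C lacked at most 1 of 4.

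TET2 (ENSG00000168769), which oxidises 5-methylcytosine and is often mutated in leukemia, had 5 control peaks, and 3 with METTL3, 1 with METTL14, 0 with WTAP and 3 with SETD2 #1. The second control had 5 and SETD2 #2 had 3. Covered bases were 902, 451, 60, 0 and 331 in the first set and 603 and 301 in the second. TET2 was thus below its control by both measures in each of the 5 knockdown lists. Its peak at chr4:106197109-106197289 (log10 p -9.97, 6.96-fold) was absent from all 5 knockdown lists and present in the second control, where 61 bases were called with 2.53-fold enrichment. All 5 control peaks of TET2 had worse p and were narrower than the member medians.

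TET3 had 5 peaks with METTL14 and 5 with WTAP against 6 in the control, covering 3148 and 3716 bases against 4167, and its broad peak named above went from 159-fold to 79.9, 59.6, 78.8 and 55.5-fold in the METTL3, METTL14, WTAP and SETD2 #1 lists. Of the DNA methyltransferases, DNMT1 lacked 1 of 8 control peaks in each list of the first set. DNMT3A (ENSG00000119772), which places new DNA methylation, had 4 control peaks. The 3'-most of these, at chr2:25456988-25457258, was the strongest member peak absent from the METTL14 list, with a log10 p of -34.3 and 2.78-fold enrichment, and was absent from the WTAP list too. It was called with METTL3 at 1.75-fold, with SETD2 #1 at 2.28-fold, and in the second control and SETD2 #2 at 3.03 and 3.11-fold.

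**Figure D4:**
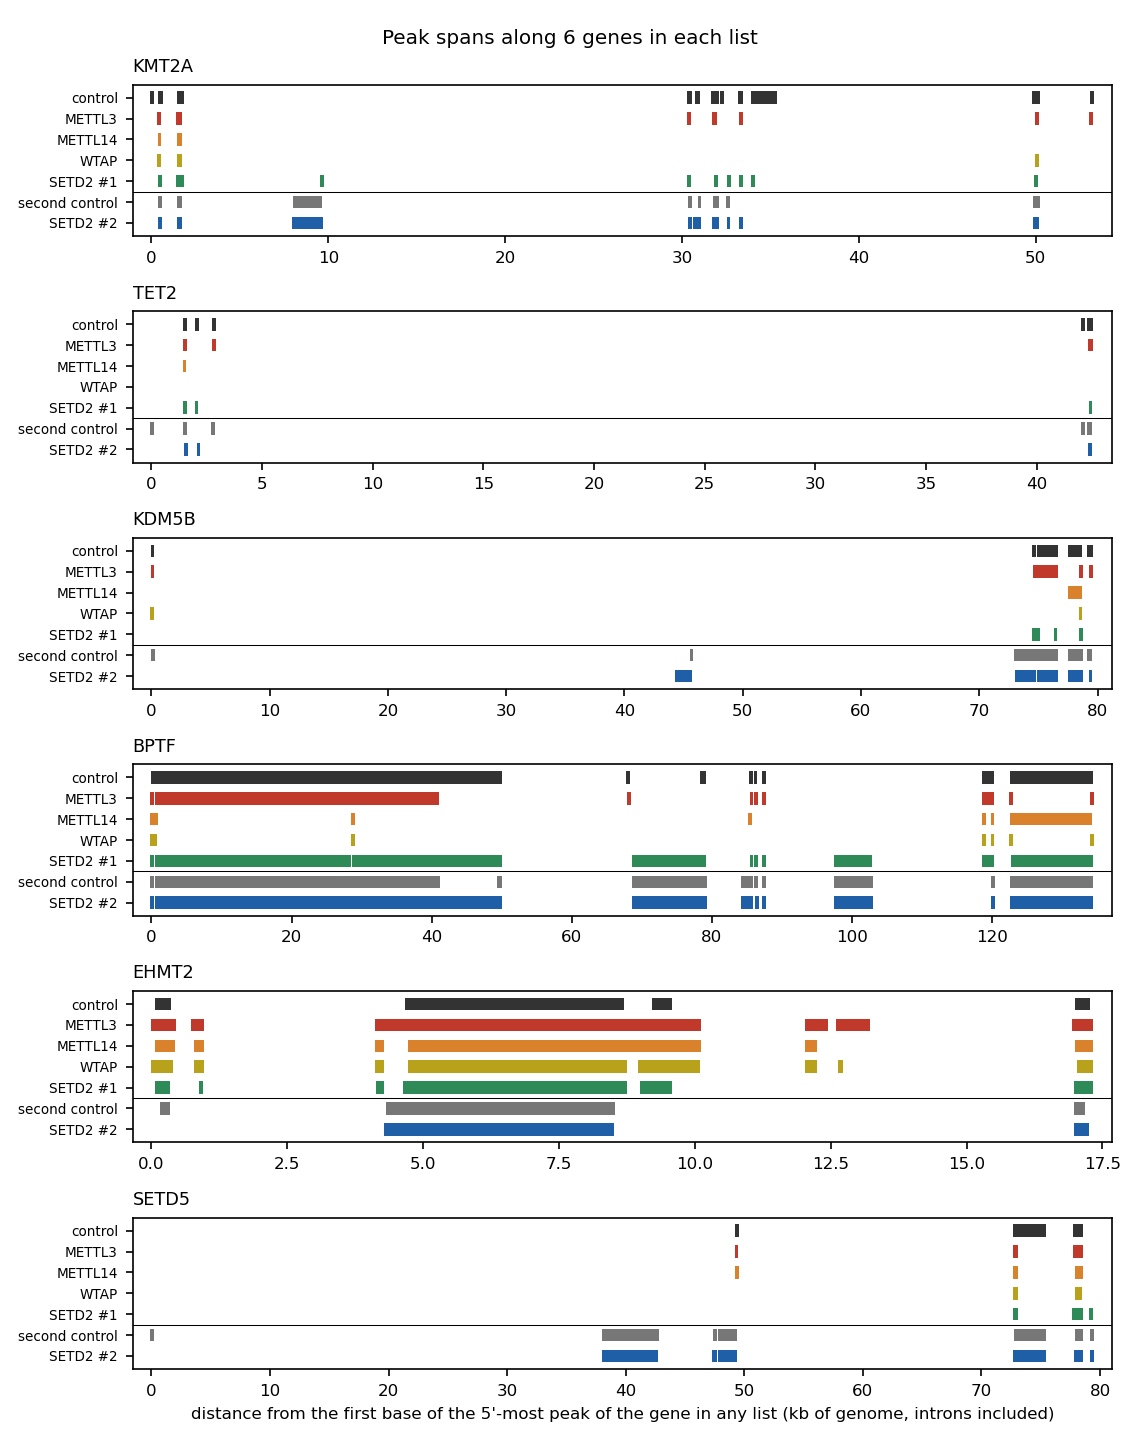
Spans of the called peaks (bars, introns inside a peak included, very narrow peaks drawn wider to be visible) along KMT2A, TET2, KDM5B, BPTF, EHMT2 and SETD5 in each of the 7 lists, against distance in kb from the 5'-most called base; the line separates the first set from the second. KMT2A keeps 2 peaks at its 5' end in the METTL14 list, TET2 has no bar for WTAP, EHMT2 has 8 peaks for WTAP against 4 in the control, and SETD5 has 7 and 6 peaks in the second set.

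The core subunits of Polycomb repressive complex 2, which methylates H3 lysine 27, had few peaks. SUZ12 (ENSG00000178691) had 1 control peak, at chr17:30325852-30326091 (log10 p -15.5, 3.58-fold), which was absent from the METTL14, WTAP and SETD2 #1 lists, overlapped by a 60-base peak with METTL3 at 1.8-fold, and present in both lists of the second set. EED (ENSG00000074266) had 2 control peaks, neither of them overlapped with METTL14 or WTAP. The stronger, at chr11:85955796-85956156, had 15.4-fold enrichment in the control, 4.4 with METTL3 and 5.9 with SETD2 #1. The accessory genes ASXL1 and ASXL2 kept most of their peaks, with 1 of 6 and 2 of 5 absent in the METTL14 list and the same counts in the WTAP list.

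SUZ12 and EED were also the members left without any peak in the METTL14 list, 2 of 41 genes (4.88%), where 18.0% of all genes with a control peak had none. Only 1 of the 41 members had a single control peak, while 5974 of the 14570 genes of the list did. The shares of genes here and below therefore do not compare genes with like numbers of peaks. WTAP left 4 of 41 without a peak (9.76%), namely SUZ12, EED, ARID2 and TET2, against 16.6%. SETD2 #1 left 1, SUZ12, against 15.1%. METTL3 left 0 of 41, which allows up to 8.60% by the exact interval, against 12.9% of all genes. Counting genes whose peaks covered less than 50% of their control bases, METTL14 gave 12 of 41 (29.3%), against 33.0% of all genes with a control peak. These were ARID2, BPTF, EED, KDM5A, KDM5B, KDM6A, KDM6B, KMT2A, KMT2C, SUZ12, TET1 and TET2. WTAP gave 11 of 41 (26.8%), against 30.9%, METTL3 gave 1 (KMT2A, 2.44%), against 21.3%, and SETD2 #1 gave 4 (KDM5A, KDM5B, SUZ12 and TET2, 9.76%), against 25.6%.

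In remodeler genes the losses were spread over several members. In SWI/SNF, 2 of 18 control peaks were absent with METTL3, 6 with METTL14 and 8 with WTAP, and ARID2 (ENSG00000189079), a subunit of the PBAF form, accounted for 1, 2 and 3 of them. ARID1A, ARID1B and SMARCA2 held the rest for METTL14 and WTAP. The intervals of the class, 13.3 to 59.0 for METTL14 and 21.5 to 69.2 for WTAP, include the shares of all control peaks. Its 929-base peak at chr12:46245626-46246554 had a log10 p of -55.6 and 12.5-fold enrichment in the control. The METTL3 list had 540 bases there at 6.6-fold, METTL14 121 bases at 2.94-fold, WTAP none and SETD2 #1 271 bases at 3.86-fold. In the second control the overlapping peak was 3.35-fold enriched and with SETD2 #2 4.23-fold. The control list of the first set thus stood above every other list at this peak. Both lists of the second set had lower fold enrichment over all peaks too, as given above. SMARCA4 (ENSG00000127616), a catalytic ATPase, lacked 0 of 5 control peaks in the 4 knockdown lists of the first set.

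BPTF (ENSG00000171634) lacked 1 of 9 control peaks with METTL3, 4 with METTL14 and 5 with WTAP. Its covered bases were 4322 in the control and 3007, 1535, 1417 and 3846 with METTL3, METTL14, WTAP and SETD2 #1, and 4082 and 4201 in the second set. A 480-base BPTF peak at chr17:65907015-65907494, 5.43-fold in the control, measured 420 bases at 3.37-fold with METTL3, 90 bases at 1.76-fold with METTL14 and was absent with WTAP. CHD4 (ENSG00000111642), the ATPase of the NuRD complex, carried the member peak with the best p that was absent from the WTAP list, 3 blocks within chr12:6687590-6690308 with a log10 p of -67.2 but 2.19-fold enrichment. That peak was present with METTL3, METTL14 and SETD2 #1 at 1.9, 1.63 and 1.85-fold.

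The paired acetyltransferases EP300 and CREBBP kept almost all of their peaks. CREBBP lacked 1 of 5 control peaks with METTL3 and 0 with METTL14, WTAP and SETD2 #1, and 4 of the 5 were present in all lists. EP300 (ENSG00000100393), which marks enhancers, lacked none of its 4 in these lists. Its 2127-base peak at chr22:41573059-41575185 was 14.9-fold enriched in the control list and 9.97, 10, 9.87 and 11.5-fold with METTL3, METTL14, WTAP and SETD2 #1, and 7.59 and 6.84-fold in the second control and SETD2 #2. With METTL14 that stretch was called as separate peaks of 839, 300 and 480 bases and with WTAP of 839, 390 and 420 bases. EP300 therefore had 6 peaks in each of those lists against 4 in the control, with 2729 and 2909 covered bases against 3687. In the deacetylase and corepressor genes 5 of 23 control peaks were absent with METTL3, 6 with METTL14 and 3 with WTAP, where intervals of 7.46 to 43.7, 10.2 to 48.4 and 2.77 to 33.6 percent include the shares of all control peaks.

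Peaks gained in a knockdown list, meaning peaks with no overlapping peak in the control list, were few. Their share was below that of all peaks in each list as reported here, and under 6 of 8 other settings for METTL3 and WTAP. Member peaks had better p than all peaks, with a median log10 p of -24.2 against -12.9 in the METTL3 list. In the WTAP list it was -30.7 against -12.7. The part of peak strength in the lower shares of gains was not tested. METTL3 had 12 of 205 (5.85%, interval 3.06 to 10.0), against 10.6% of all peaks of its list, METTL14 12 of 172 (6.98%, interval 3.66 to 11.9), against 12.7%, and WTAP 11 of 177 (6.21%, interval 3.14 to 10.8), against 13.5%. The strongest of them lay in EHMT2 (ENSG00000204371), which methylates H3 lysine 9 together with EHMT1. A peak at chr6:31863964-31864204 had a log10 p of -32.5 and 21.6-fold enrichment with METTL3, and 18.9-fold with METTL14 and 15.4-fold with WTAP over 181 bases each, and 2.65-fold over 61 bases with SETD2 #1. It had no counterpart in the control, the second control or SETD2 #2.

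EHMT2 had the largest rise in covered bases among the members in each knockdown list of the first set. It had 4 control peaks, none of them absent from the METTL3, METTL14, WTAP or SETD2 #1 lists, and 6, 6, 8 and 6 peaks in those lists. Covered bases were 1354 in the control and 3155, 2435, 2377 and 1866 in the knockdowns, and 993 and 962 in the second control and SETD2 #2. Its main peak, 6 blocks within chr6:31856241-31860270 at 11.4-fold in the control, was part of a 12-block, 1651-base peak at 30.8-fold with METTL3. EHMT2 was thus above its control in all 4 knockdown lists of the first set and not with SETD2 #2. Transcript levels of EHMT2 were not part of the files used, so their part in this was not tested.

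A further gain lay in SMARCA4, at chr19:11141487-11141577. It was 91 bases wide and 2.25-fold enriched with METTL3 and 2.28-fold with METTL14, and the WTAP list had 181 bases there at 3.08-fold. SMARCA4 covered 2854 bases in the control, 3665, 3454 and 3515 with METTL3, METTL14 and WTAP, and 2734 with SETD2 #1. Members above their control bases were 14.6%, 7.32%, 9.76% and 4.88% in these 4 knockdown lists, in the same order. The shares over all genes were 19.8%, 15.6%, 15.9% and 12.3%.

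SETD2 was targeted with 2 shRNAs, each set against its own control. SETD2 #1 lacked 41 of the 211 control peaks (19.4%, interval 14.3 to 25.4), against 27.0% of all control peaks, and SETD2 #2 lacked 28 of 234 second control peaks (12.0%, interval 8.10 to 16.8), against 20.5%. Both member shares lay below those of all peaks, but they pool strong and weak peaks, which are taken apart next. Among peaks with p at or better than the list median, 1 of 125 (0.80%, interval 0.020 to 4.38) was absent with SETD2 #1, against 3.24%, and 2 of 148 (1.35%, interval 0.16 to 4.80) with SETD2 #2, against 2.66%. Among peaks with worse p the shares were 40 of 86 (46.5%, interval 35.7 to 57.6), against 50.9%, and 26 of 86 (30.2%, interval 20.8 to 41.1), against 38.4%. By strength the member shares were still the lower ones, but each interval included the share of all such peaks. The histone demethylases had the highest share of the 9 classes with SETD2 #1, 9 of 28 (32.1%, interval 15.9 to 52.4), and the SET domain group of SETD5, EHMT1 and EHMT2 with SETD2 #2, 3 of 15 (20.0%, interval 4.33 to 48.1), intervals that overlap those of all 8 other classes.

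The strongest peaks absent with SETD2 #1 were the single peak of SUZ12, a 2-block peak of TET3 within chr2:74326503-74327522 (log10 p -10.6, 5.57-fold), and the 5'-most and 3'-most peaks of KDM5B. The KDM5B peak at its 5' end, chr1:202777371-202777580, was 18.4-fold enriched in the control. With SETD2 #2 the strongest was a 2-block peak of HDAC4 (ENSG00000068024), a class IIa deacetylase, within chr2:240111531-240112732 (log10 p -16.2, 4.38-fold). It was followed by the 5'-most peak of KDM6A at chrX:44732813-44732995 (log10 p -10.7, 4.37-fold) and a KDM6B peak at chr17:7750439-7750619 (2.43-fold). No member peak absent with either shRNA had a log10 p below -16.2, while the best p among all member peaks was listed as 0.

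The SETD2 shRNAs had separate controls, so their losses can be compared. Of the 170 member control peaks that also had a second control peak, 5 (2.94%, interval 0.96 to 6.73) were absent from both SETD2 lists, against 6.03% of all such peaks. They lay in the KDM5B 5' end, in TET2 at chr4:106197109-106197289 and chr4:106157903-106158023, in KDM6B at chr17:7750892-7751252 and in KDM6A at chrX:44732753-44732995. The KDM5B peak was the strongest, with a log10 p of -10.4. It was present with METTL3 at 4.74-fold and with WTAP at 18.2-fold, and absent with METTL14. The 5 peaks thus fell in demethylase genes and TET2, and none of them had p at or better than the list median.

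Gains with the SETD2 shRNAs were 9 of 193 peaks with SETD2 #1 (4.66%, interval 2.15 to 8.67), against 8.07%, and 18 of 227 with SETD2 #2 (7.93%, interval 4.77 to 12.2), against 14.5%. For SETD2 #1 the strongest was in EHMT2, at chr6:31860642-31860792 (log10 p -13.6, 3.42-fold), and the next, in KMT2A, had a log10 p of -5.92. For SETD2 #2 the strongest was the only peak of DNMT3B (ENSG00000088305), a DNA methyltransferase, within chr20:31375094-31376735 (log10 p -12.4, 2.58-fold). The second control had no DNMT3B peak, while the first control had 2. In covered bases, the median member kept 83.5% with SETD2 #1 and 98.8% with SETD2 #2, against 76.9% and 91.4% over all genes with a control peak. TET2 was the 1 member of 41 (2.44%) with less than 50% of its second control bases left in the SETD2 #2 list, against 16.1% of all genes. None of the 41 lost all of its peaks there, against 10.5% of all genes.

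The controls differed from each other by as much as several knockdowns did from their control. Of 234 second control peaks, 42 (17.9%, interval 13.3 to 23.5) had no counterpart in the first control, against 15.6% of all peaks of that list. With p at or better than the list median, 9 of 148 (6.08%, interval 2.82 to 11.2) were absent, against 6.06%, and in the other direction 9 of 125 (7.20%, interval 3.35 to 13.2), against 7.28%. EZH2 (ENSG00000106462) was the clearest case, with 3 peaks in the second control and 2 with SETD2 #2, and 0 in each of the 5 lists of the first set. These peaks covered 453 and 332 bases. Its strongest peak, 3 blocks within chr7:148523712-148525896, was 2.31-fold enriched in the second control and 2.38-fold with SETD2 #2. Of the 41 genes with a second control peak EZH2 alone had none in the first control (2.44%), against 6.73% of all genes. DNMT3B was the 1 of 41 in the other direction, against 13.4%. Genes whose second control peaks covered less than 50% of their bases in the first control were DNMT3B, KDM6A and KMT2B, 3 of 41 (7.32%), against 25.8%.

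SETD5 (ENSG00000168137), a SET domain protein mutated in intellectual disability, had 7 peaks in the second control and 6 with SETD2 #2, and 2 or 3 in each list of the first set. Its covered bases were 2221 and 2341 against 1049 to 1470. A 3-block peak within chr3:9477521-9482300 had a log10 p of -49.3 and 4.71-fold enrichment in the second control and was not called anywhere in the first set. TET1 had 6 and 7 peaks in the second set and 1 to 4 in the first, with 1175 and 1714 covered bases against 210 to 722. CHD7 had 10 and 9 peaks against 6 in each list of the first set, and EP300 8 and 7 against 4 to 6. The covered bases of the second control were only slightly above those of the first for CHD7, and below them for EP300. CHD7 covered 3933 bases in the second control and 3689 in the first, and EP300 covered 3211 and 3687. DNMT3B and EHMT2 went the other way, with 0 and 3 peaks in the second control and 2 and 4 in the first, and 0 and 993 covered bases against 450 and 1354. Of the 266 sites, 46 were found in the first set only and 42 in the second set only, 23 of these in both of its lists. Sites were not counted over all genes, so whether these genes differ from others in this was not tested. Whether the sets differ in time, culture or depth cannot be told apart from the files used.

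Place along the gene was read as the order of a gene's peaks from its 5' end, since transcript regions were not analysed here. Because member genes carried many peaks, 130 of the 211 control peaks (61.6%) were middle peaks, against 31.2% of all control peaks, and 1 (0.47%) was the only peak of its gene, against 17.7%. The 5'-most member peaks had a median fold enrichment of 8.51 in the control list, the middle ones 4.88 and the 3'-most 3.91. The median over all peaks went from 10.3 to 5.31 and 5.39 in the same order. Single-block peaks made up 42.5% of the 5'-most, 46.2% of the middle and 67.5% of the 3'-most member peaks.

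Within each knockdown the shares of absent peaks by place had overlapping intervals. With METTL14, 11 of 40 5'-most peaks (27.5%, interval 14.6 to 43.9), 43 of 130 middle peaks (33.1%, interval 25.1 to 41.9) and 15 of 40 3'-most peaks (37.5%, interval 22.7 to 54.2) were absent. With WTAP the values were 8 of 40 (20.0%, interval 9.05 to 35.6), 40 of 130 (30.8%, interval 23.0 to 39.5) and 16 of 40 (40.0%, interval 24.9 to 56.7). Over all control peaks the shares by place were 29.6%, 27.3% and 29.9% with METTL14 and 26.6%, 27.7% and 29.6% with WTAP, and each member interval includes its own. Examples of absent 3'-most peaks are those of DNMT3A, KDM6A and CHD4 given above. With SETD2 #2 the order was the reverse, with 10 of 40 5'-most (25.0%, interval 12.7 to 41.2), 15 of 153 middle (9.80%, interval 5.59 to 15.7) and 3 of 40 3'-most peaks (7.50%, interval 1.57 to 20.4). All peaks of that list gave the same order, with 26.3% of 5'-most and 17.7% of middle peaks absent and a lower share of the 3'-most. For METTL3 the member shares were 17.5%, 16.2% and 12.5%, against 24.3%, 21.6% and 19.8% of all peaks. For SETD2 #1 they were 22.5%, 16.2% and 25.0%, against 29.9%, 26.7% and 22.5%.

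**Figure D5:**
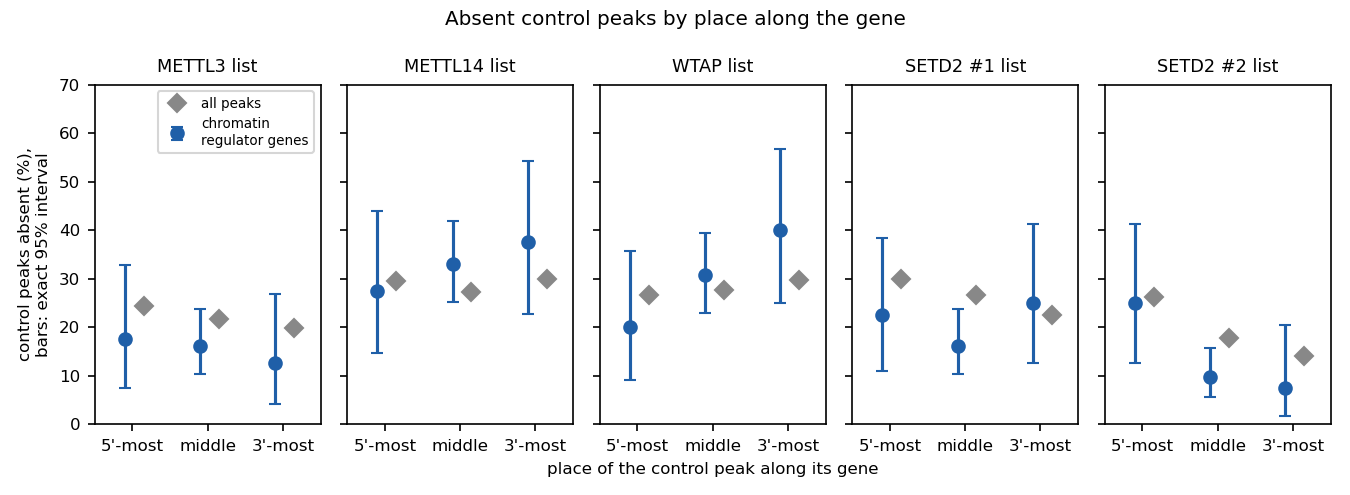
Percent of 5'-most, middle and 3'-most control peaks absent from each knockdown list, for the chromatin regulator genes (circles, with exact 95% intervals for counting error) and for all peaks (diamonds); SETD2 #2 is set against the second control. Circles go from 20.0% to 40.0% along the gene for WTAP and from 25.0% to 7.50% for SETD2 #2, with overlapping intervals.

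Peaks that were present in both lists were often narrower with a knockdown. Among pairs in which 1 control peak met 1 knockdown peak, the knockdown peak was the narrower in 103 of 152 pairs with METTL3 (67.8%), 86 of 113 with METTL14 (76.1%), 85 of 119 with WTAP (71.4%) and 114 of 157 with SETD2 #1 (72.6%). Over all genes the shares were 56.7%, 62.4%, 62.2% and 64.9%. With SETD2 #2 it was 77 of 189 (40.7%), against 44.1%. The second control was narrower than the first in 88 of 142 pairs (62.0%), against 60.7%, so narrower peaks than in the first control were also seen without a knockdown. The BPTF peak named above, 480 bases in the control and 90 with METTL14, is an example.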

How the data were processed

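The data are m6A-seq libraries of HepG2 cells, 42 samples in 14 groups of 3, grouped by the labels. TopHat2 2.1.1, FastQC 0.11.5 and the genome build hg19 appear in the submitters' processing notes. exomePeak was run by the authors on the 3 replicates of a condition jointly, per the labels. No exomePeak version and no source of the gene models is given in the sources used here. Per the file headers, each peak of the deposited tables has a p-value, a false discovery rate (FDR, at most 0.05) as a log10 score, the log10 of the p-value, and a fold enrichment, a linear ratio. The shorter deposited lists equalled the table rows in which fold enrichment reached 2 and the p-value was 1e-05 or lower. The precision that read depth gives each peak is unknown, because the files used hold no read counts.

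Repeated rows (11 to 21 per list, 0 in the genes described) were counted once. Peaks were compared by their blocks on the same strand with Python 3.11.15, numpy 2.4.6 and pandas 2.3.3. The code was tested on the control list with peaks removed at random, and against a base-by-base search on part of its peaks. Shares carry exact Clopper-Pearson 95% intervals from scipy 1.17.1, and figures were drawn with matplotlib 3.10.9. Losses were counted against the control of the same set, and the same count over all peaks was computed for each share by list, support and place. Members and lists were chosen with earlier results of these data known.

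Symbols were assigned to the 43 Ensembl identifiers from general nomenclature, since no table used here pairs them. All 43 are symbols in RefSeq for GRCh38.p14, 42 of 42 genes with peaks lay on the same chromosome in the same order, and 42 of 42 peak spans were shorter than the RefSeq gene. A list of other chromatin regulators could not be matched to identifiers and was not analysed here, nor were transcript regions or sequences of hg19. Peaks named with values were the 6 absent and 5 gained with the best p-value per knockdown, those absent from METTL3, METTL14 and WTAP together or from both SETD2 lists, the best shared and the widest and narrowest control peaks, and the members with most and fewest control peaks per class. Other peaks, such as those of EZH2, SETD5, EP300 and EED, were named after their values were seen. The results of 2 genes are counted in the totals and not reported by name here. Alternatives were another overlap limit, whole spans, no strand, stricter lists, repeated rows kept, genes with 3 or more peaks and, chosen after seeing the data, leaving out the 5 genes with the most absent peaks.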

Additional observations from a re-analysis of the deposited data

How the results depend on the processing

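Each share was recomputed under other settings, 167 values for 34 results, of which 122 stayed within the 95% interval of the reported share and 45 moved outside it. A share has no sign that can turn, but its order against all peaks can, and did so in part of the settings. Whole spans, ignoring strand and keeping repeated rows moved 0 values, and all 15 shares by place stayed within their intervals in genes with 3 or more peaks. With an overlap of at least 50% of both peaks, absent control peaks were 30.3% (METTL3), 47.4% (METTL14), 46.9% (WTAP), 29.4% (SETD2 #1) and 21.4% (SETD2 #2). Between the controls they were 43.6% and 49.1%, gains were 28.3%, 35.5%, 36.7%, 22.8% and 18.9% in the same order of knockdowns, and shared peaks were 32.2% of control and 27.4% of second control peaks.

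With an FDR of at most 1e-05 in the counted list, absent peaks were 5.99%, 22.2%, 22.2%, 8.38% and 2.25% in that order, and 13.8% and 10.7% between the controls. Gains were 1.29% with SETD2 #1 and 0.58% with SETD2 #2, and shared peaks 63.5% and 66.9%. Restricting to p at or better than the list median gave 0%, 11.2%, 12.8%, 0.80% and 1.35% absent, 7.20% and 6.08% between the controls, gains of 2.34% (METTL3), 3.48% (METTL14), 0.84% (SETD2 #1) and 0.69% (SETD2 #2), and shared peaks of 78.4% and 76.4%. The shorter lists gave 7.39% absent and 4.65% gained with SETD2 #2. A fold enrichment of at least 3 in both lists gave 30.6% and 12.1% absent between the controls and 13.2% gained with SETD2 #2. Leaving out the 5 genes with the most absent peaks, chosen after seeing the data, gave 25.6% with METTL14 and 22.6% with WTAP. The share of absent member peaks was below that of all peaks in 8 of 8 overlap and list settings for METTL3, SETD2 #1 and SETD2 #2, and in 2 of 8 for METTL14 and for WTAP. Between the controls it was below in 7 of 8 settings for control peaks and in 1 of 8 for second control peaks. The share of gained member peaks was below that of all peaks in 6 of 8 settings for METTL3 and for WTAP, and in 8 of 8 for METTL14, SETD2 #1 and SETD2 #2.

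No paired analysis was possible because each list pools replicates 1 to 3, and no replicate was left out for the same reason. Classes of transcript region were not run, since no annotation of hg19 was used here. Read depth, which sets how weak a peak can be called, is unknown.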
